A study of Mus musculus with 6 samples.

Results

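The 42 genes described here act in mitosis and its spindle checkpoint, and they were chosen by symbol from the 52550 genes listed in the files. They comprise the mitotic cyclins and their kinase, the Polo and Aurora kinases, the checkpoint proteins, kinetochore and centromere proteins, spindle motors, anaphase factors, and proteins that hold, cut or compact chromosomes. Messenger RNA was sequenced from mouse bone marrow cells that the labels call hematopoietic stem cells, in 3 knockout (KO) and 3 wild-type (WT) libraries. The study asked which genes depend on Ppp2ca, the gene of the catalytic alpha subunit of the phosphatase PP2A. KO cells had the genotype VAV1crePpp2caf/f, that is, floxed Ppp2ca alleles and the recombinase Cre under the Vav1 promoter, which works in blood cells generally. WT cells had the genotype Ppp2caf/f, the same floxed alleles with no Cre named, so Cre itself and the loss of Ppp2ca cannot be told apart. The labels do not give age, sex or the surface markers of the isolation, and they do not say that libraries came from separate animals. The p-values thus weigh the difference between groups against the spread between these libraries, which may be technical.

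Cells enter mitosis when cyclin B activates the kinase Cdk1, which phosphorylates many proteins, and they leave it when the anaphase-promoting complex, a ubiquitin ligase activated by Cdc20, marks cyclin B and securin for destruction. The spindle checkpoint holds Cdc20 back until every kinetochore is attached to the spindle. PP2A removes many of the mitotic phosphates, and its B55 and B56 forms act at mitotic exit, at kinetochores and at the centromere, where shugoshin recruits it to protect cohesin. Transcripts of many mitotic genes accumulate in G2 phase under the MuvB complex with MYBL2 and FOXM1, which acts through a promoter element called CHR, and they are kept low in resting cells by the related DREAM complex.

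The promoters of the members carried the letters known for this control. RefSeq promoter windows of build GRCm38.p6, from 250 bases before to 50 bases after the transcription start, were found for 34 of the 42 genes. The CHR letters TTTGAA or TTTAAA, on either strand (TTTAAA is its own reverse complement), were present in 27 of the 34 windows, or 79.4%. They were present in 27.9% of all 27025 windows of the same length and in 20% of the 11590 windows of genes tested here. The letters CCAAT, the core of the element bound by the factor NF-Y, were also present in 27 of 34 on either strand, against 38% of all windows, and they stood at least 2 times in 16 of 34, or 47.1%, against 12.1%. Both motifs were present in 23 of 34, or 67.6%, against 11% of all windows, and the matches overlapped each other in 1 member. The first base of a CHR match lay between -60 and 40, with the start as 0, in 67.6% of the members' windows and in 8.84% of all windows. These bounds were not part of the plan, and the upper one is the position of the only CHR match of Bub1b. The contrast is therefore a description and no test of position. The letters GCGGGAA of an E2F site were present in 1 member, Sgo2a, or 2.94%, against 4.67% of all windows and 8.05% of windows of tested genes. The start used for the Sgo2a window, chr1:57985340, lies before the listed coordinates of the gene, chr1:57995971-58025899. A match describes letters in a window and is not a measured binding site.

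**Figure D1:**
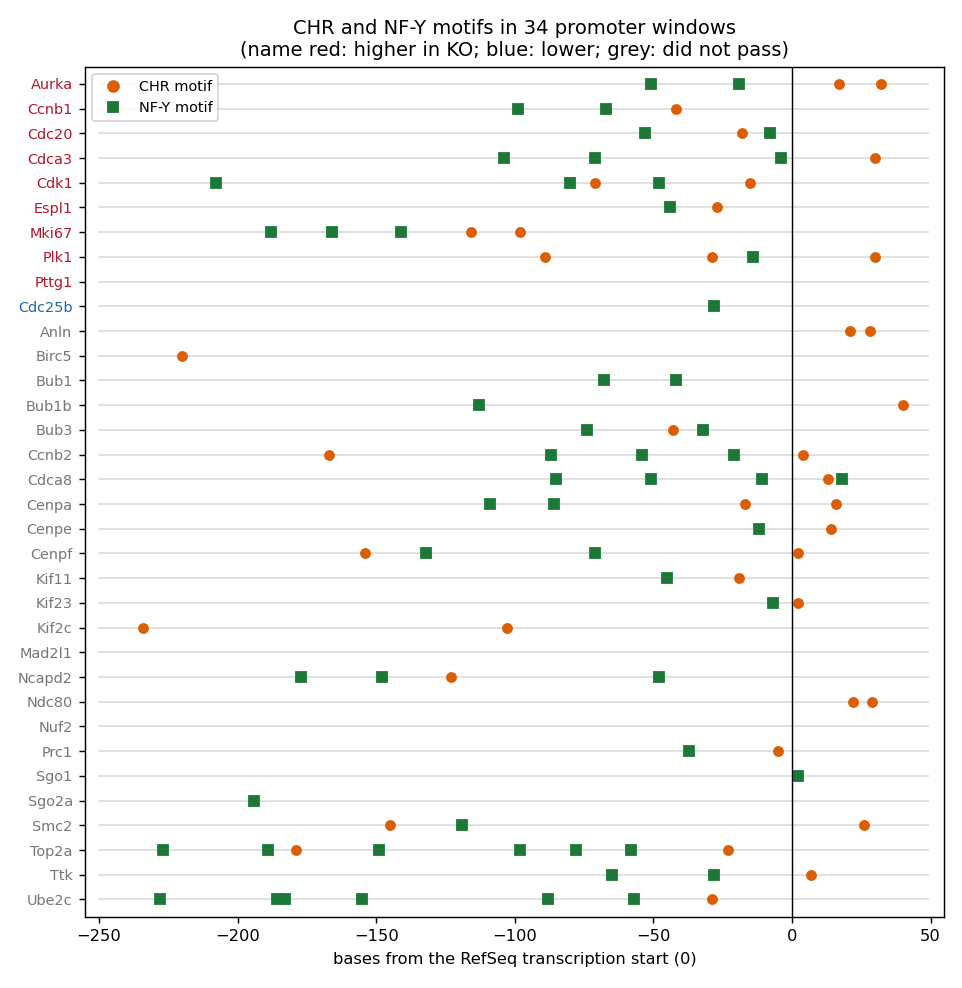
Position of CHR motifs (orange circles) and NF-Y motifs (green squares) in the 34 promoter windows, in bases from the RefSeq transcription start at 0; gene names are red where the gene was higher in KO, blue where lower and grey where it did not pass. Both motifs were present in 23 of 34 windows, and in windows of genes that passed as well as in windows of genes that did not.

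The stretches of 150 bases just before the start are shown for genes whose levels differed and for genes whose levels did not pass the test, since the same motifs stood in both. Capitals mark matches to the CHR letters and to CCAAT, or to their reverse complements, as defined above. All are read 5′ to 3′ on the strand of the gene. Ccnb1, Plk1 and Cdk1 were higher in KO, Cdc25b was lower, and Ccnb2 and Top2a did not pass.
Ccnb1 (chr13:100786487-100786636, minus strand): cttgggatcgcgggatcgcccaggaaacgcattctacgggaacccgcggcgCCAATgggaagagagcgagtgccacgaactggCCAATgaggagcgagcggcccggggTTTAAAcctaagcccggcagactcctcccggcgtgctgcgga
Plk1 (chr7:122159285-122159434, plus strand): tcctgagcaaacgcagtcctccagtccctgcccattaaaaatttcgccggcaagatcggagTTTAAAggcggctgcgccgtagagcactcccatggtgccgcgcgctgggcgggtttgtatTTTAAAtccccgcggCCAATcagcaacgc
Cdk1 (chr10:69352913-69353062, minus strand): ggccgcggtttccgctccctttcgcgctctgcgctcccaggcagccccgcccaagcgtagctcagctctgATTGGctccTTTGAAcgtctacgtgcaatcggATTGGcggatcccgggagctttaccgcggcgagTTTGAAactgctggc
Ccnb2 (chr9:70421555-70421704, minus strand): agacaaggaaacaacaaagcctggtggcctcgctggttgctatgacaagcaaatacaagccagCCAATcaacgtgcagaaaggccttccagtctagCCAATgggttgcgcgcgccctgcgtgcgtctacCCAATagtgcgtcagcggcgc
Top2a (chr11:99024190-99024339, minus strand): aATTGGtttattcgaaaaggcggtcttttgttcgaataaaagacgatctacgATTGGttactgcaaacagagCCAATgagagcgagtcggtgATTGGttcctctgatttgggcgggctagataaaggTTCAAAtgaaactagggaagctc
Cdc25b (chr2:131186798-131186947, plus strand): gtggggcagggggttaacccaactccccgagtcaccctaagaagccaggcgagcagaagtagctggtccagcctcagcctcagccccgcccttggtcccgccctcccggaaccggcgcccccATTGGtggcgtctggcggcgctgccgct

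In these stretches Ccnb1 had 1 CHR match at -42, downstream of 2 CCAAT matches, and Cdk1 had CHR matches at -71 and -15. Top2a, which did not pass, had a CHR match at -23. Ccnb2 had 3 CCAAT matches in the stretch and its nearest CHR match at 4, just past the start. Cdc25b, the member that was lower, had 1 CCAAT match at -28 and no CHR match. Among the 9 members higher in KO that had a window, 8 held CHR letters and 8 held CCAAT. Among the other 25 members with a window, 19 held CHR letters and 19 held CCAAT. Pttg1, which was higher in KO, held neither.

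The libraries held 46033994, 50992981 and 58692037 reads in KO and 37951985, 48665968 and 47815466 in WT. The deposited values are read counts divided by a size factor for each library and are called normalised reads. They add up to between 49336024 and 50641650 in KO and between 44391581 and 46310456 in WT, so the choice of scaling bears on every level given here. Ppp2ca itself (chr11:52098681-52127778) had 23728, 22419 and 24046 normalised reads in KO, against 32909, 33451 and 33169 in WT. KO was at 70.5% of WT (limma log2 fold change -0.50 ± 0.07 SE, adjusted p = 0.00268), and a count over the whole gene does not separate the exons that Cre removes from the others. Cell type markers also differed. Over all genes tested, 10.3% were higher in KO and 13.0% lower at a limma adjusted p under 0.05. Of 15 stem cell markers, those of the labelled cells, 14 were lower in KO, with a summed level of 33702 to 53431 normalised reads in KO and 102244 to 114136 in WT. Of 10 granulocyte-monocyte progenitor markers, 9 were higher in KO, with a sum of 1882820 to 2096536 in KO and 1262419 to 1496910 in WT. All 12 erythroid markers were lower in KO, at 12490 to 13855 in KO and 56916 to 61966 in WT. The part of these differences in the results on mitotic genes was not tested. Reads shared with neighbours limit some genes. The 7490 exon bases of Ppp2ca overlap Gm24157 and 9430098F02Rik on the other strand and Mir3061 on its own, by 3184 bases in all. Plk1, Cdc25b, Cdc25c and Prc1 overlap genes on the other strand by 156, 92, 623 and 911 bases. Foxm1, Ncapd2 and Top2a overlap genes on their own strand by 241, 472 and 122 bases, and Ccnb1 and Ccnb2 have annotated pseudogenes. In RNA from whole cell samples, fewer cells of a kind and less RNA per cell cannot be told apart.

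The mitotic genes were abundant in every library. All 42 were tested, and the fewest reads behind any member in any library were 869. Summed over the 42 genes, KO libraries 1 to 3 had 364492, 368662 and 373119 normalised reads, against 296302, 320508 and 326218 in WT libraries 1 to 3. As a share of its library the sum was 0.739%, 0.736% and 0.737% in KO, against 0.667%, 0.692% and 0.721% in WT. The KO libraries thus lay above the WT libraries on both scales, and WT library 3 came closest. Per kilobase of exon, Cdc20 (8342 normalised reads per kilobase in KO and 6377 in WT) and Ccnb2 (8011 in KO and 7479 in WT) were the most abundant members in both groups. The least abundant was Cenpf, at 180.0 normalised reads per kilobase in KO and 192.6 in WT.

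Some of the 42 genes were higher in KO. With limma on log2(normalised reads + 1), 15 members were higher in KO and 1 was lower at a Benjamini-Hochberg adjusted p under 0.05, and 26 did not pass. The 15 are 35.7% of the members, where 10.3% of all 20136 genes tested were higher and 13.0% lower. Among the 6720 tested genes that were at least as abundant as the lowest member, 22.5% were higher and 11.6% lower. All 3 KO libraries lay above all 3 WT libraries in 20 of the 42 members, where this held for 19.1% of all genes tested and for 35.0% of those at or above the lowest member's level. They lay below in 1 member, where this held for 21.7% and 18.5%. The groups overlapped in 21 members. The median log2 fold change (KO minus WT) of the members was 0.18, against -0.02 over all genes tested and 0.11 over those at or above the lowest member's level.

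**Figure D2:**
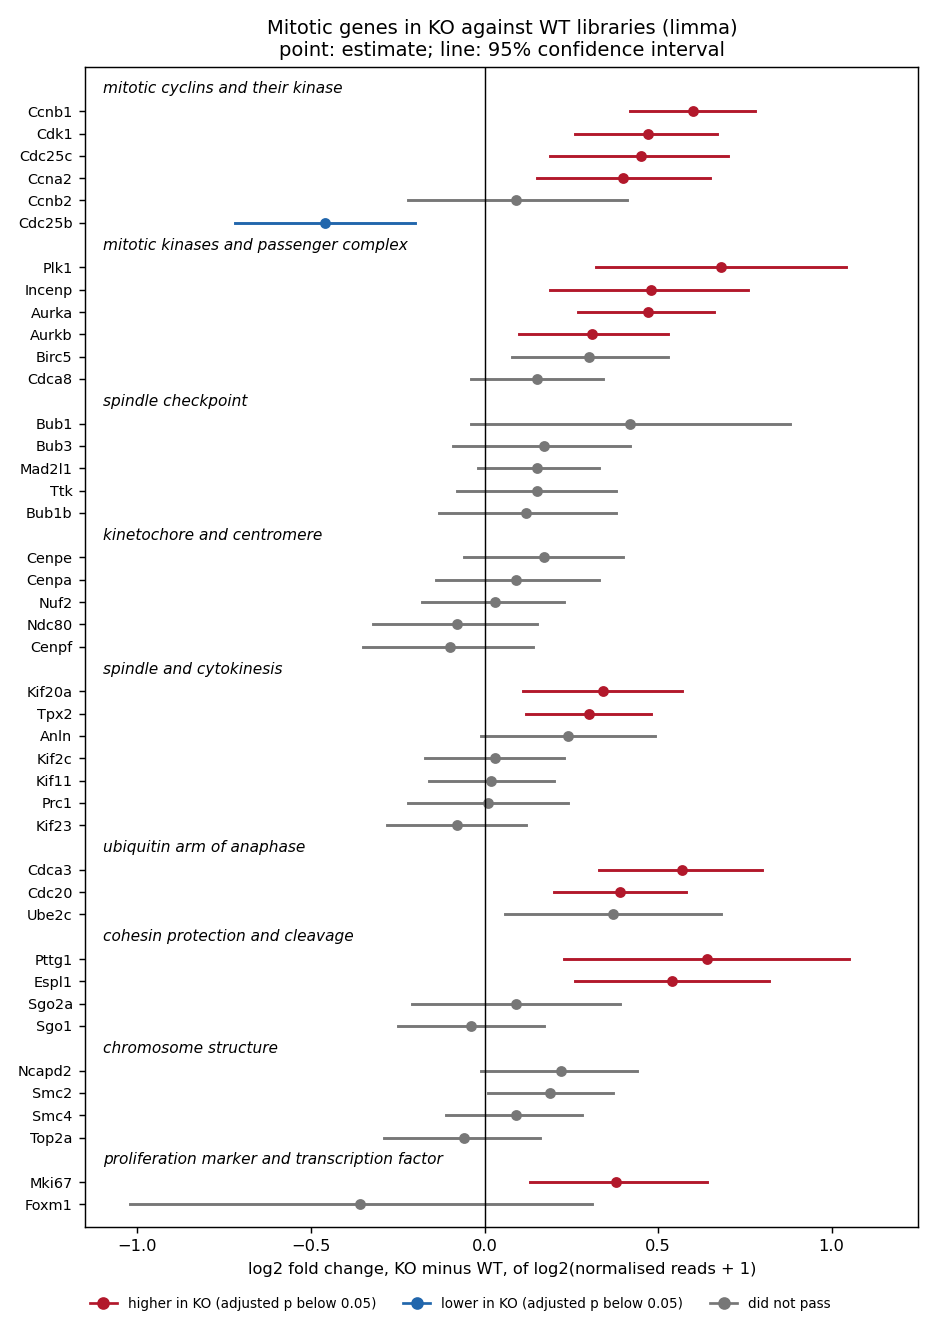
Log2 fold change of each of the 42 genes, KO minus WT, on the log2(normalised reads + 1) scale, with the 95% confidence interval from limma, ordered by role; red and blue mark genes higher and lower in KO at an adjusted p under 0.05. Of the 42 genes 15 were higher, 1 was lower and 35 had a positive estimate, including all 5 checkpoint genes, which did not pass.

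Scaling moved the size of this rise. With each library scaled to a common total, the median over all genes tested moved by -0.13, and the members' median was 0.04, with 6 members higher and 1 lower. With quantile normalisation the median over all genes moved by 0.10, and the members' median was 0.07, with 8 higher and 1 lower. Without an intensity trend in limma, 2 members, Ccnb1 and Cdca3, were higher, and the lower call was lost. The 6 members higher under a common total were Aurka, Ccnb1, Cdca3, Cdk1, Espl1 and Plk1. The members' median stayed above 0 under the scalings tried. Relative to the median of genes at or above the lowest member's level it was higher by 0.07 as deposited, by 0.07 under a common total and by 0.04 under quantile normalisation. Relative to all genes it was higher by 0.20 as deposited and by 0.19 under a common total,; the difference was -0.01 under quantile normalisation. Leaving out KO library 3 left 4 members higher, and leaving out WT library 1 left 7, the lowest counts when 1 library was left out.

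**Figure D3:**
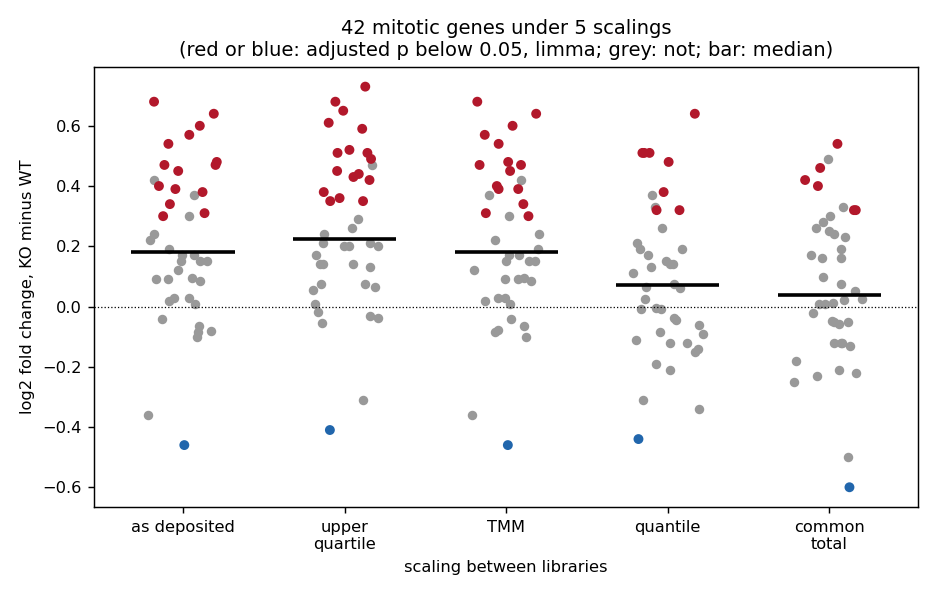
Log2 fold change (KO minus WT) of the 42 genes under 5 ways of scaling the libraries; each point is a gene, red or blue where limma's adjusted p was under 0.05, and the bar is the median. The median was 0.18 as deposited, 0.07 with quantile normalisation and 0.04 with a common total, and 1 gene, Cdc25b, was called lower under each.

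Of the genes that start mitosis, cyclin B1, Cdk1, cyclin A2 and the activating phosphatase Cdc25c were higher in KO, and the related phosphatase Cdc25b was lower. Ccnb1 (chr13:100778650-100786570) encodes cyclin B1, the partner that switches Cdk1 on. It had 19104, 17378 and 19489 normalised reads in KO libraries 1 to 3, against 11774, 12569 and 12498 in WT libraries 1 to 3. The groups were far apart, with KO at 152% of WT (log2 fold change 0.60 ± 0.08 SE, limma adjusted p = 0.00237), and the call held under every one of the 19 alternatives tried. Cdk1, the kinase itself, had 9742, 8828 and 9507 in KO, against 6246, 6803 and 7280 in WT (0.47 ± 0.09 SE, adjusted p = 0.00925). The lowest KO library was above the highest WT library. Ccna2, cyclin A2 of S and G2 phase, had 18405, 22027 and 20688 in KO, against 13517, 16342 and 16440 in WT (0.40 ± 0.11 SE, adjusted p = 0.0326). KO was higher without overlap, and the call was lost when some single libraries were left out, which also leaves fewer samples. The adjusted p was 0.113 without KO library 3, 0.082 without KO library 2, 0.0837 without WT library 1, 0.0595 without WT library 2 and 0.0533 without WT library 3. In these fits the log2 fold change was 0.39, 0.34, 0.31, 0.45 and 0.45, beside 0.40 with all libraries. Ccna2 overlaps Exosc9 by 510 bases on the other strand, and no source used here says whether the counting used strand.

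Cyclin B2 did not pass, and the Cdc25 pair gave calls of opposite sign. Ccnb2 (cyclin B2) had 14098, 10244 and 12454 normalised reads in KO, against 10735, 10652 and 12962 in WT. These values overlap, and the log2 fold change was 0.09 with a 95% confidence interval from -0.22 to 0.41 (limma adjusted p = 0.674). Its sign turned under a common total, under quantile normalisation and without KO library 1, with values of -0.050, -0.084 and -0.014. Cdc25b (chr2:131186949-131198497) had 1332, 1377 and 1376 in KO, against 1680, 1943 and 2012 in WT. KO was at 72.5% of WT with no overlap (-0.46 ± 0.11 SE, limma adjusted p = 0.0219). The adjusted p was 0.0547 without KO library 1, 0.0783 without KO library 3, 0.0712 without WT library 2 and 0.0666 without WT library 3. Cdc25c, its sister phosphatase, had 1521, 1530 and 1473 in KO, against 1130, 1020 and 1171 in WT (0.45, adjusted p = 0.0231). KO was higher in each library, with an adjusted p of 0.0563, 0.0523 and 0.0796 without KO libraries 1, 2 and 3 and of 0.0706 without WT library 2. The ratio of Cdc25c to Cdc25b was therefore 1.14, 1.11 and 1.07 in KO, against 0.673, 0.525 and 0.582 in WT. The ratio of Ccnb1 to Ccnb2 was 1.36, 1.70 and 1.56 in KO, against 1.10, 1.18 and 0.964 in WT. Such ratios within a library do not depend on a scaling by one factor per library, but quantile normalisation can change them. The pairs were chosen after the values were seen and were not tested.

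The mitotic kinases and the chromosomal passenger complex were higher in KO for 4 of 6 genes, and all 3 KO libraries were above all 3 WT libraries in each of the 6. Among tested genes at or above the lowest member's level, 22.5% were higher, and 35.0% had all KO libraries above all WT libraries. Plk1 (chr7:122159439-122169873), the Polo kinase of mitotic entry, centrosomes and cytokinesis, had 14936, 11632 and 14176 normalised reads in KO, against 6771, 8971 and 9833 in WT. It had the largest log2 fold change of the 42 genes, 0.68 ± 0.16 SE (limma adjusted p = 0.0182), and also a wide spread in both groups. The adjusted p was 0.054 without KO library 1 and 0.0725 without KO library 3. Aurka, the Aurora kinase of centrosomes and spindle poles, had 9299, 8776 and 9544 in KO, against 6191, 6814 and 7011 in WT (0.47 ± 0.08 SE, adjusted p = 0.00748). Its call held without any single library.

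The passenger complex joins Aurora B to Incenp, survivin and borealin at the inner centromere, where it corrects wrong attachments. Incenp, its scaffold, had 6482, 7531 and 7024 normalised reads in KO, against 4245, 5677 and 5282 in WT (0.48 ± 0.12 SE, limma adjusted p = 0.0291). Aurkb had 11893, 13652 and 12396 in KO, against 9301, 10501 and 10794 in WT (0.31 ± 0.09 SE, adjusted p = 0.0468). Both were higher in KO without overlap, but Aurkb lost the call without any one library, with an adjusted p from 0.0561 (without KO library 1) to 0.126 (without KO library 3). Incenp lost it without KO library 2 or 3 and without WT library 1 or 3, with an adjusted p of 0.0745, 0.0969, 0.061 and 0.0609. Birc5 (survivin) averaged 9394 ± 314 normalised reads in KO and 7652 ± 813 in WT (SD, n = 3 each), a log2 fold change of 0.30 with an interval from 0.08 to 0.53 that did not pass (adjusted p = 0.0597). Without WT library 3 its adjusted p was 0.043. Cdca8 (borealin) averaged 10200 ± 217 in KO and 9205 ± 691 in WT (0.15, adjusted p = 0.242). The ratio of Aurka to Tpx2, its activator at the spindle, was 0.896, 0.888 and 0.912 in KO, against 0.793, 0.800 and 0.812 in WT.

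**Figure D4:**
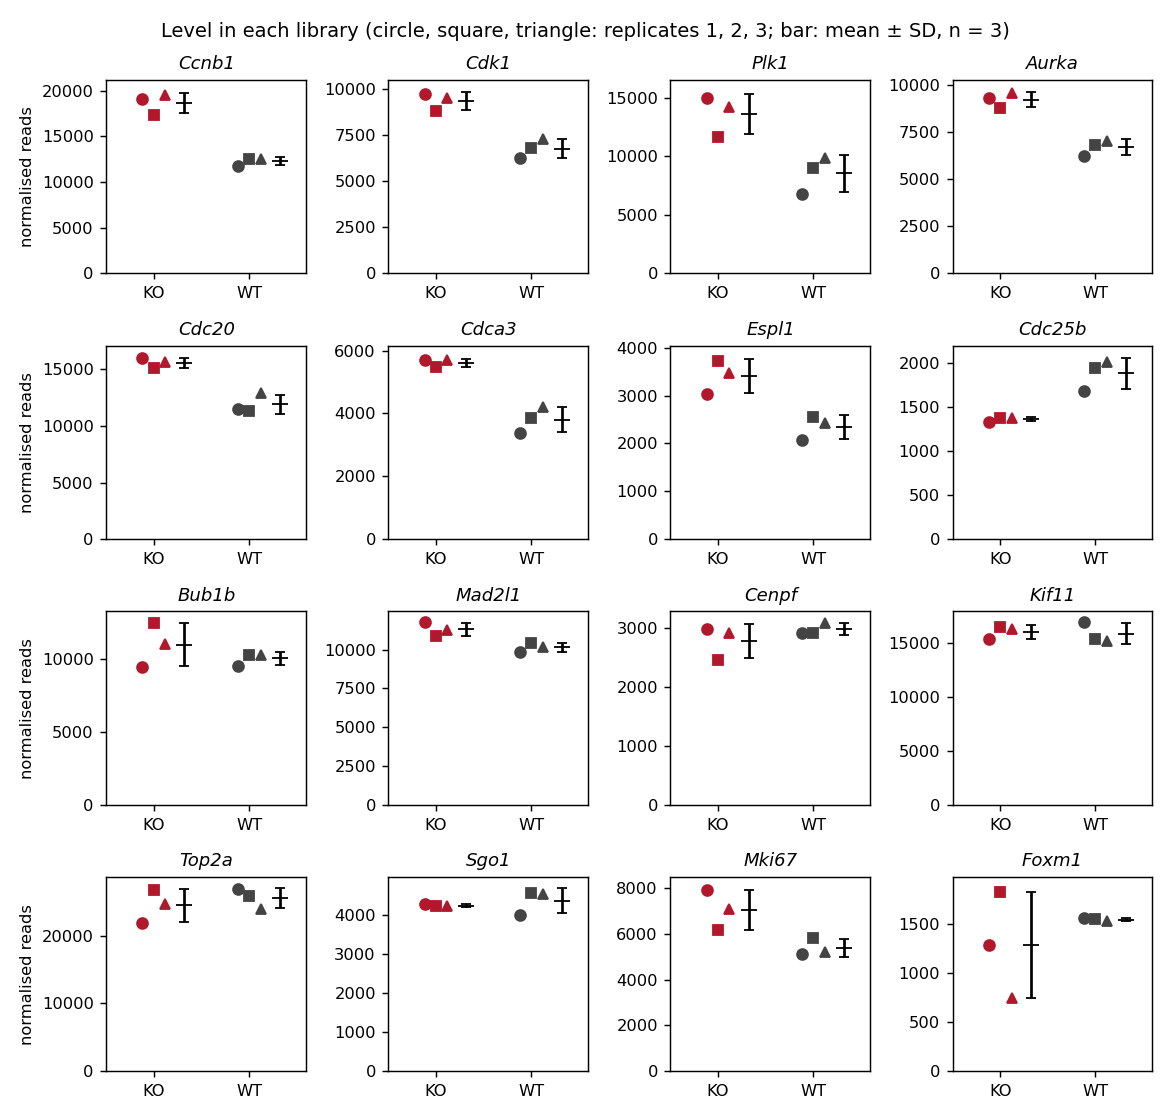
Normalised reads of 16 members in each library (KO red, WT grey; circle, square and triangle are replicates 1, 2 and 3) with the mean ± SD (n = 3) beside them and each vertical axis starting at 0. Ccnb1, Cdk1, Plk1, Aurka, Cdc20, Cdca3, Espl1 and Mki67 lay higher in every KO library and Cdc25b lower, whereas Foxm1 ranged from 750 to 1832 in KO and from 1532 to 1562 in WT.

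Of the 5 spindle checkpoint genes, 0 passed the limma test and 0 had an unadjusted p under 0.05, though each had a positive log2 fold change, with a median of 0.15. By edgeR and DESeq2 on the recovered reads 0 passed too, and 1, Bub1, had an unadjusted p under 0.05 by DESeq2. Of tested genes at or above the lowest member's level, 22.5% were higher by limma and 11.6% lower. A list of 5 genes is too small to set 0 apart from these shares. Bub1, the kinase that recruits checkpoint proteins and marks centromeric chromatin for shugoshin, had 4739, 7473 and 5560 normalised reads in KO, against 3435, 4826 and 4977 in WT. KO library 2 was far above the others, and the log2 fold change of 0.42 had an interval from -0.04 to 0.88 (limma adjusted p = 0.177). Bub1b (BubR1, the checkpoint protein that also binds PP2A-B56) had 9445, 12408 and 11018 in KO, against 9497, 10266 and 10256 in WT. The groups overlapped (0.12, interval -0.13 to 0.38, adjusted p = 0.48), and the sign turned under a common total (-0.020) and quantile normalisation (-0.046). Mad2l1, which encodes the checkpoint protein Mad2 that binds Cdc20, had 11759, 10870 and 11232 in KO, against 9828, 10400 and 10191 in WT. Its KO libraries lay above WT, but the log2 fold change of 0.15 did not pass (interval -0.02 to 0.33, adjusted p = 0.179), and it was -0.0089 under quantile normalisation. Ttk (Mps1, the kinase that starts checkpoint signalling) had 3192, 3262 and 3238 in KO, against 2617, 3041 and 3089 in WT (0.15, adjusted p = 0.316). Bub3, the partner of Bub1 and BubR1, averaged 14234 ± 885 in KO and 12748 ± 1699 in WT (SD, n = 3 each; adjusted p = 0.339).

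Of 3 genes grouped as a ubiquitin arm, 2 were higher in KO (66.7%), beside 22.5% of tested genes at or above the lowest member's level. Cdc20 and Ube2c act with the anaphase-promoting complex, whereas Cdca3 is known for a role in the destruction of Wee1. Cdc20, the target that the checkpoint restrains and the activator of the anaphase-promoting complex, had 16015, 15095 and 15636 normalised reads in KO, against 11484, 11367 and 12887 in WT (log2 fold change 0.39 ± 0.08 SE, limma adjusted p = 0.0125). The groups did not overlap, and the adjusted p was 0.059 without KO library 3. The ratio of Cdc20 to Mad2l1 was 1.36, 1.39 and 1.39 in KO, against 1.17, 1.09 and 1.26 in WT. Cdca3 (chr6:124829547-124833701; Tome-1), known as an F-box-like factor in the destruction of the Cdk1 inhibitor Wee1, had 5694, 5469 and 5689 in KO, against 3372, 3854 and 4191 in WT. KO was at 148% of WT (0.57 ± 0.10 SE, limma adjusted p = 0.00698), and with Ccnb1 it was one of the 2 members whose call held under all 19 alternatives. Ube2c, the ubiquitin-conjugating enzyme that works with the complex, had 9677, 11908 and 11470 in KO, against 7116, 8814 and 9758 in WT. The lowest KO library fell just under the highest WT library, and the log2 fold change of 0.37 did not pass (interval 0.06 to 0.68, adjusted p = 0.0892). Ube2c overlaps Tnnc2 by 592 bases on the other strand. Of 17 genes of the anaphase-promoting complex and its regulators, 0 passed by limma, edgeR or DESeq2, with a median of 0.03, and 1 had an unadjusted limma p under 0.05. Those with the smallest p were Anapc4 (6001 normalised reads on average in KO and 5054 in WT, adjusted p = 0.0693), Fbxo5 (2972 in KO and 3555 in WT, 0.14) and Anapc15 (1868 in KO and 1523 in WT, 0.145).

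Of the genes for cohesin protection and cleavage, the cleaving enzyme and its inhibitor were higher in KO and the shugoshins did not pass. Espl1 (separase), which cuts cohesin at anaphase, had 3037, 3733 and 3476 normalised reads in KO, against 2072, 2547 and 2420 in WT (0.54 ± 0.12 SE, limma adjusted p = 0.017). KO lay above WT in each library, with an adjusted p of 0.0712 without KO library 3 and 0.0527 without WT library 1. Pttg1 (securin), which holds separase inactive, had 3266, 2054 and 2222 in KO, against 1473, 1619 and 1664 in WT (0.64 ± 0.18 SE, adjusted p = 0.0369). KO library 1 was well above the other KO libraries, and the ratio of Pttg1 to Espl1 overlapped between groups, at 1.08, 0.550 and 0.639 in KO and 0.711, 0.635 and 0.688 in WT. The adjusted p of Pttg1 was 0.0735 without KO library 3 and 0.122, 0.0897 and 0.0791 without WT libraries 1, 2 and 3. Sgo1 (shugoshin 1), which brings PP2A to centromeric cohesin, had 4273, 4212 and 4214 in KO, against 3983, 4564 and 4537 in WT. The groups overlapped, and the interval of the log2 fold change ran from -0.25 to 0.17 around -0.04 (limma adjusted p = 0.79), with a value of 0.0072 under upper quartile scaling. Sgo2a (shugoshin 2) had 2519, 3008 and 2556 in KO, against 2348, 2926 and 2320 in WT (0.09, interval -0.21 to 0.39, adjusted p = 0.656; -0.049 under a common total). It overlaps Kctd18 by 2455 bases.

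Among 7 spindle and cytokinesis genes, 2 were higher in KO (28.6%), beside 22.5% of tested genes at or above the lowest member's level. Tpx2, which activates Aurora A and builds spindle microtubules, had 10384, 9885 and 10460 normalised reads in KO, against 7803, 8521 and 8634 in WT (0.30 ± 0.08 SE, limma adjusted p = 0.029). Kif20a (Mklp2), the kinesin that carries Aurora B to the central spindle, had 12691, 11436 and 12288 in KO, against 8698, 9454 and 10748 in WT (0.34 ± 0.10 SE, adjusted p = 0.0432). Both were higher without overlap, and both calls were lost when some single libraries were left out, which also leaves fewer samples. For Tpx2 the adjusted p was 0.0713 and 0.121 without KO libraries 1 and 3 and 0.0682 and 0.0643 without WT libraries 1 and 2. For Kif20a it was 0.111, 0.0503 and 0.14 without KO libraries 1, 2 and 3 and 0.113 and 0.115 without WT libraries 1 and 2. Kif20a also overlaps Cdc23 by 1271 bases on the other strand. Anln (anillin, of the cleavage furrow) had 4763, 6066 and 5421 in KO, against 4785, 4467 and 4429 in WT, where KO library 1 fell inside the WT range (0.24, adjusted p = 0.147). The motors Kif11 (Eg5, which pushes spindle poles apart), Kif23 and Kif2c and the microtubule bundler Prc1 had log2 fold changes of 0.02, -0.08, 0.03 and 0.01. Their intervals each included 0, and Kif11, Kif2c and Prc1 changed sign in some of the alternatives.

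Of the 5 kinetochore and centromere genes, 0 passed by limma, edgeR or DESeq2 and 0 had an unadjusted p under 0.05 by any of them. Their groups overlapped in every case, and their median log2 fold change was 0.03. By limma 22.5% of tested genes at or above the lowest member's level were higher and 11.6% lower. With 5 genes, 0 calls cannot be set apart from these shares. Cenpe, the kinetochore motor that aligns chromosomes, had 6235, 5211 and 5989 normalised reads in KO, against 4802, 5364 and 5333 in WT (0.17, interval -0.06 to 0.40, limma adjusted p = 0.277). Cenpf had 2971, 2452 and 2910 in KO, against 2910, 2919 and 3088 in WT (-0.10, interval -0.35 to 0.14, adjusted p = 0.543). Cenpa, the histone variant that marks centromeres, had 5643, 4576 and 5150 in KO, against 4923, 4540 and 4903 in WT (0.09, adjusted p = 0.567). Their values were interleaved between KO and WT. Ndc80 and Nuf2, partners in the complex that grips microtubules, had log2 fold changes of -0.08 and 0.03, and their ratio was 0.639, 0.675 and 0.652 in KO, against 0.670, 0.710 and 0.746 in WT.

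Of the 4 chromosome structure genes, 0 passed by limma, edgeR or DESeq2, and 1, Smc2, had an unadjusted limma p under 0.05. With 4 genes, 0 calls cannot be set apart from the 22.5% higher and 11.6% lower among tested genes at or above the lowest member's level. Top2a, the topoisomerase that untangles sister chromatids, was the member with the highest level in reads and had 21880, 26811 and 24672 normalised reads in KO, against 26816, 25827 and 23894 in WT. Its log2 fold change was -0.06 with an interval from -0.29 to 0.16 (limma adjusted p = 0.681), and it turned to 0.013 without KO library 1. The condensin genes Smc2, Ncapd2 and Smc4 had values of 0.19 (adjusted p = 0.117), 0.22 (0.153) and 0.09 (0.526). Smc2 had 11709, 11476 and 11709 in KO, against 9683, 10906 and 9980 in WT, and Ncapd2 had 7746, 9295 and 8929 in KO, against 6980, 7482 and 7850 in WT. Smc2 lay above WT in every KO library, and for Ncapd2 the groups overlapped. Smc4 had 15282, 13618 and 14425 in KO, against 13303, 14618 and 12926 in WT.

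Mki67, the gene of the proliferation marker Ki-67, had 7919, 6177 and 7075 normalised reads in KO, against 5106, 5828 and 5225 in WT (0.38 ± 0.11 SE, limma adjusted p = 0.0428). The KO libraries were higher without overlap, and the adjusted p was 0.109 and 0.133 without KO libraries 1 and 3 and 0.125, 0.0602 and 0.112 without WT libraries 1, 2 and 3. Divided by Top2a in the same library it was 0.362, 0.230 and 0.287 in KO, against 0.190, 0.226 and 0.219 in WT. Foxm1, the transcription factor of G2 genes, had 1290, 1832 and 750 in KO, against 1562, 1553 and 1532 in WT. The KO libraries stood on both sides of a narrow WT range, and the log2 fold change was -0.36 with an interval from -1.02 to 0.31 (adjusted p = 0.431). Mybl2, which joins MuvB in S phase and is no member, had 12607, 9035 and 10757 in KO, against 4515, 6031 and 5698 in WT (0.99 ± 0.15 SE, limma adjusted p = 0.00413). The ratio of Foxm1 to Mybl2 was 0.102, 0.203 and 0.0697 in KO, against 0.346, 0.257 and 0.269 in WT.

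**Figure D5:**
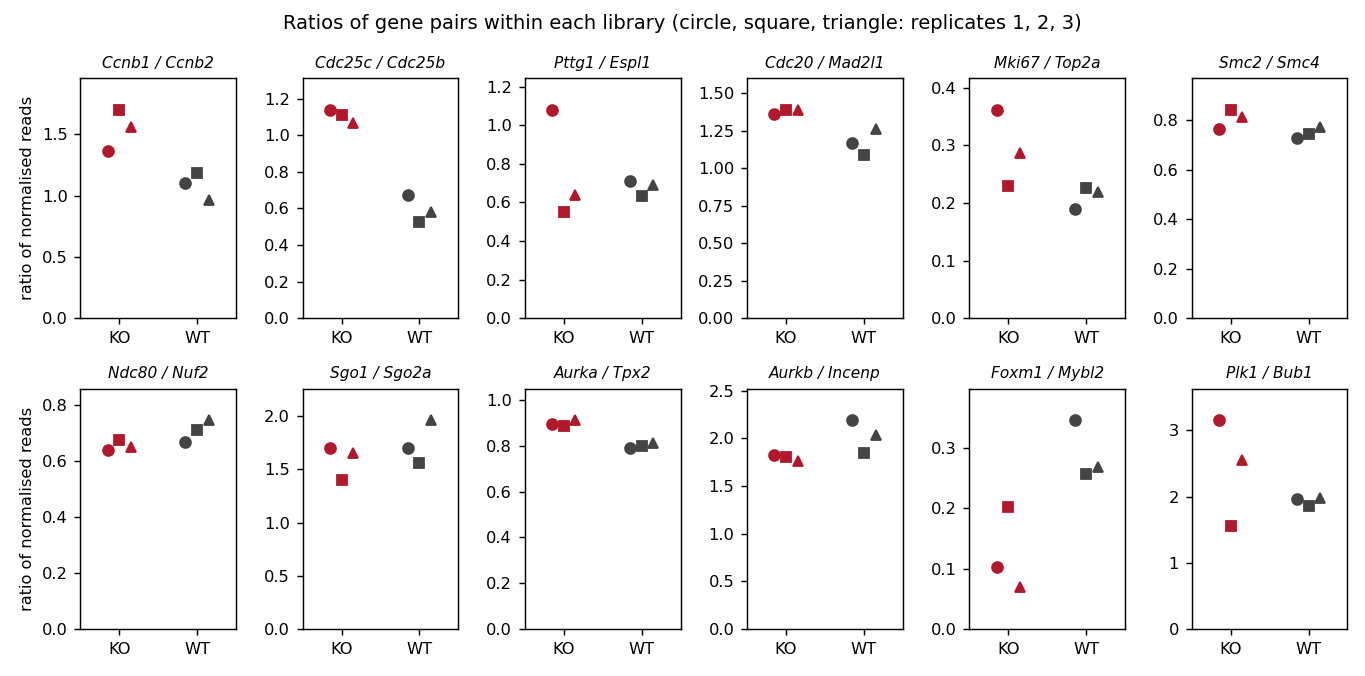
Ratio of normalised reads of a pair of genes within each library for 12 pairs (KO red, WT grey; circle, square and triangle are replicates 1, 2 and 3); each axis starts at 0, and pairs were chosen after the values were seen and have no test. Cdc25c over Cdc25b was 1.07 to 1.14 in KO and 0.525 to 0.673 in WT, and Pttg1 over Espl1, Smc2 over Smc4, Ndc80 over Nuf2, Sgo1 over Sgo2a and Plk1 over Bub1 overlapped between groups.

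The number of members for which a library was highest or lowest in its group differed between libraries. In KO, library 2 had the highest value for 17 members and the lowest for 23, with Bub1, Bub1b, Espl1 and Foxm1 among those it was highest for and Plk1, Ccnb2, Cenpe and Mki67 among those it was lowest for. In WT, library 1 had the lowest value for 30 of 42 members and library 3 the highest for 24. These counts were made separately and do not give how many members had both. Stem cell markers were highest in KO library 2 within KO, at a sum of 53431 normalised reads, against 33702 in KO library 1 and 44309 in KO library 3. The same library had the lowest sum of mature neutrophil markers in KO, 121253, against 267914 in KO library 1. Whether these cell markers bear on the spread of the members was not tested.

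Mitotic genes outside the 42 are given against the same shares over all genes tested, 10.3% higher and 13.0% lower. Among genes at or above the lowest member's level, 22.5% were higher and 11.6% lower. The 23.3% higher in the first list below is close to that 22.5%, and the lists were not matched for level. Of 30 other spindle and cytokinesis genes, 7 (23.3%) were higher in KO and 1, Ckap2l, was lower (3.33%). In this list 25 of 30 log2 fold changes were positive, and their median was 0.21, beside 0.18 for the members. The 3 with the smallest p were Sapcd2 (0.70, adjusted p = 0.00606), Nek2, a centrosome kinase (0.52, 0.00988) and Tacc3, a spindle protein that Aurora A phosphorylates (0.49, 0.0114). Of 36 other kinetochore and checkpoint genes, 2 were higher and 2 were lower (5.56% each), with a median of 0.00. Trip13, the ATPase that takes apart Mad2 complexes, had 6476, 5833 and 6197 normalised reads in KO, against 3697, 4214 and 3545 in WT (0.69 ± 0.10 SE, limma adjusted p = 0.00294). Spdl1, which brings dynein to kinetochores, had a log2 fold change of 0.41 (adjusted p = 0.0201), and Nsl1, of the Mis12 complex, one of -0.61 (0.0047). Ska2 was the other gene that was lower. Calls in these lists were also lost when some single libraries were left out, which leaves fewer samples. Without KO library 3 the adjusted p was 0.0527 for Nek2, 0.0575 for Tacc3 and 0.0689 for Spdl1. For Spdl1 it was 0.0565 without KO library 1 and 0.053 without WT library 1. Of 18 other condensin and cohesin genes, 3 (16.7%) were higher and 1, Mau2, was lower (5.56%), with a median of 0.07. Those higher were Ncapg2 of condensin II (0.78, adjusted p = 0.00478), the cohesin release factor Wapl (0.42, 0.015) and Ncapg of condensin I (0.36, 0.0241). Without KO library 3 the adjusted p was 0.0722 for Wapl and 0.0833 for Ncapg, and for Ncapg it was 0.0667, 0.0657 and 0.0661 without KO library 1, WT library 1 and WT library 3. Of 6 genes that regulate mitotic entry or PP2A-B55 (Wee1, Pkmyt1, Mastl, Ensa, Arpp19 and Cdc25a), 1 (16.7%) was lower in KO. Ensa, whose product inhibits PP2A-B55 once phosphorylated by Mastl, averaged 6435 ± 106 in KO and 7904 ± 466 in WT (SD, n = 3 each; -0.30, limma adjusted p = 0.0334). Its adjusted p was 0.0782, 0.0661 and 0.104 without KO libraries 1, 2 and 3 and 0.0823 and 0.0875 without WT libraries 1 and 3. Mastl (0.23, adjusted p = 0.175) and Arpp19, the paralog of Ensa (0.11, 0.478), did not pass.

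The S phase and G1 genes set beside the members did not move as one either. Over all genes tested 10.3% were higher and 13.0% lower, and among those at or above the lowest member's level 22.5% and 11.6%. Of 49 DNA replication genes, 8 (16.3%) were higher and 2 (4.08%) were lower, with a median of 0.06. Rrm2, the regulated subunit of ribonucleotide reductase, had 39649, 32461 and 36768 normalised reads in KO, against 14309, 17177 and 15823 in WT. KO was at 230% of WT (1.20 ± 0.10 SE, limma adjusted p = 0.00072), a fold change above that of every member. Cdc45 (0.57, adjusted p = 0.00915) and Orc2 (0.50, 0.0101), of the replicative helicase and the origin complex, followed by p. Of 12 DREAM and MYBL2 regulators, 3 (25%) were higher and 2 (16.7%) were lower, with a median of -0.00. The higher ones were Mybl2, E2f4 at 0.55 and Tfdp1 at 0.42. The lower ones were E2f5 at -1.12 and Rbl2, the p130 pocket protein, at -0.34. Of 17 tested G1 cyclins, kinases and inhibitors, 2 were higher and 2 were lower (11.8% each), with a median of -0.15. Ccnd1 (cyclin D1) averaged 286 ± 42.8 in KO and 697 ± 89.7 in WT (-1.29, adjusted p = 0.00353). Cdkn1b, the inhibitor p27, averaged 496 ± 14.7 in KO and 870 ± 57.9 in WT (-0.81, adjusted p = 0.00517). E2f2, an activating E2F, averaged 1360 ± 72.3 in KO and 874 ± 17.8 in WT (0.64, adjusted p = 0.00641), and Ccne1 was the other gene that was higher. Cdkn2a and Cdkn2b were listed at 0 in all libraries.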

How the data were processed

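Per the labels' protocols, poly(A) RNA was prepared with a VAHTS mRNA-seq v2 library kit. The submitters' processing notes name the tools HISAT2 and StringTie, and mm8 and mm10 as builds, with no role. The counting method and its strand setting are not given in the sources used here. Each deposited value is a gene's signal, called expression in the file headers. All were whole multiples of one step per library within 0.01 read (100% of values), so they are read counts divided by a size factor, and whole reads were recovered. Coordinates match GENCODE M21 (GRCm38) for all 49035 identifiers found there. Libraries of a group differed beyond sampling noise (chi-square per degree of freedom 38.0 to 80.5).

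The plan allowed for this unit: limma 3.58.1 in R 4.3.3 (intensity trend) on log2(value + 1) for the 20136 genes that reached 1 in no fewer than 3 libraries, two-sided, with Benjamini-Hochberg adjustment over these genes and a threshold of 0.05. Fold changes are on this scale, which understates those of low genes. Count tests on recovered reads (edgeR 4.0.16, DESeq2 1.42.0) were alternatives, beside other scalings, filters, pseudocounts, variance models, a replicate block and leaving out each library; scaling to a common total was added after seeing the data. The procedure was run on simulated data with larger changes than that of any member, so the simulation does not cover changes of the members' size.

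The members, the other lists and the naming rule (per group up to 3 genes with the smallest p, plus fixed names) were chosen with earlier results of these data known. Genes outside the rule are named where a count is small. Promoter sequences are RefSeq's (GRCm38.p6), the most upstream window of each gene; 8 members have none here. Depth limits precision little at these levels, and counting error alone is smaller than the spread between libraries.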

Additional observations from a re-analysis of the deposited data

How the results depend on the processing

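Of the 16 members that passed, 2 (Ccnb1 and Cdca3) passed under all 19 alternatives, and Aurka and Cdk1 lost the call only without the intensity trend; the other 12 lost it in 3 to 12 alternatives. Without the trend, the number of genes higher in KO was 1071, with 2 members higher in KO and 0 members lower in KO. Library quality weights gave 3198 genes higher in KO. Quantile normalisation gave 8 members higher and a members' median of 0.07. Scaling to a common total gave 1337 genes higher, 6 members higher and a median of 0.04, and 27.6% of all calls were then higher, against 44.1% as deposited. With 1 library left out, there were 978 to 1808 genes higher in KO and 1617 to 2548 genes lower in KO, 4 to 11 members were higher and 0 to 1 lower, and the median was 0.14 to 0.22. The cause of these changes was not tested; leaving out a library also leaves fewer samples. Replicate numbers did not pair the libraries (correlations of deviations -0.02, -0.01 and -0.02), and with the replicate number as a block 1705 genes were higher and 2157 lower, with 10 members higher and 1 lower. DESeq2 and edgeR each called 16 members higher and 1 lower.

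Sign changes were seen for genes that did not pass in either fit. Under a common total the log2 fold change was -0.035 for Arpp19, -0.020 for Bub1b, -0.050 for Ccnb2 and Cenpa, -0.12 for Kif11, Kif2c and Nuf2, -0.13 for Prc1, -0.049 for Sgo2a and -0.057 for Smc4. With quantile normalisation it was -0.046 for Bub1b, -0.037 for Bub3, -0.084 for Ccnb2, -0.0080 for Cdca8, -0.0037 for Cenpa, -0.19 for Kif11, -0.061 for Kif2c, -0.0089 for Mad2l1, -0.091 for Nuf2, -0.12 for Prc1 and Smc4. It was -0.0024 for Prc1 with edgeR and -0.043 with quality weights, and 0.0072 for Sgo1 with upper quartile scaling. Without KO library 1 it was -0.014 for Ccnb2 and Nuf2 and 0.013 for Top2a. Kif11 gave -0.0020, -0.0023 and -0.010 without KO library 2, WT library 2 and WT library 3, with a highest value of 0.069 without WT library 1. Prc1 gave -0.044 and -0.070 without KO library 2 and WT library 3, up to 0.066 without WT library 2. Kif2c ranged from -0.015 without KO library 3 to 0.066 without WT library 3, and Nuf2 gave -0.0019 without WT library 1 and up to 0.075 without KO library 2.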

Other observations

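Further cell type marker lists differed in how many members were lower or higher in KO. Over all genes tested, 13.0% were lower and 10.3% higher. Of 8 megakaryocyte markers, 7 were lower, with a summed level of 5504 to 7515 normalised reads in KO and 22218 to 27118 in WT. Of 12 macrophage and dendritic cell markers, 7 were lower, at 9790 to 10484 in KO and 27160 to 32254 in WT, and of 7 mast cell, basophil and eosinophil markers, 6 were lower, at 14030 to 27878 in KO and 62678 to 129816 in WT. Of 7 tested B lineage markers, 2 were lower, with Pax5 and Ebf1 at 0 in all libraries. The 10 listed B lineage markers had a summed level of 5955 to 7193 in KO and 31259 to 54146 in WT. Of 8 tested T and NK cell markers, 6 were lower, at 83.6 to 132 in KO and 624 to 784 in WT. All 5 tested stromal and endothelial markers were lower, at 2104 to 4199 in KO and 5958 to 6136 in WT. Of 10 mature neutrophil markers, 3 were higher and 1 was lower, at 121253 to 267914 in KO and 83989 to 142524 in WT. Their part in the results on mitotic genes was not tested.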
